A study of Drosophila melanogaster with 2 samples.

Results

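Distal gene-body peaks of Myb were taken as the called peaks whose summit lay more than 1000 bp from every annotated transcription start site (TSS) and inside the span of at least 1 protein-coding gene. They numbered 916 of the 6100 called peaks. The rule used position alone and no measured value beyond the call itself. The series is a chromatin immunoprecipitation (ChIP-seq) of whole Drosophila melanogaster embryos collected 0 to 24 h after laying, from a transgenic fly line that carries Myb with GFP fused to its C terminus. Male and female embryos were pooled, chromatin was sonicated to 200 to 800 bp, and an antibody against GFP was used, so the tagged protein and not the endogenous Myb was recovered. There was 1 group of 2 biological replicates from the same line, and no control or comparison group was analysed here. The called list is the set that passed the irreproducible discovery rate (IDR) filter over both replicates, on genome build dm6. In whole embryos, Myb binding in few cells and weak binding in many cells cannot be told apart.

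Myb is a DNA-binding transcription factor that works within the Myb-MuvB complex, also known as dREAM, which is best known for sitting at promoters of cell-cycle and mitotic genes. In that complex Myb recognises a short core sequence, and the MuvB part recognises, as studied mostly in human cells, the cell-cycle genes homology region (CHR). Introns of fly developmental genes, and above all the long introns near the 5' end, commonly hold enhancers, which act on a promoter from a distance.

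The sequences below show what stood near the summit of 8 intronic peaks, the strongest on 2L, 3L, 3R and X that held a Myb core or CHR word within 50 bp of the summit. The words searched were CAACGG or TAACGG for the Myb core and TTTGAA or TTCGAA for the CHR, each on both strands. Each sequence is 30 bases of dm6, written 5' to 3' on the strand named, with the Myb core or CHR word in capitals. A match is a description of the letters and not a mapped binding site.
CG11050 intron, CHR word, chr2L:6612743-6612772, plus strand: tacaacgctagaTTTGAAtaacccacatat
CG1632 intron, Myb core, chrX:8265409-8265438, plus strand: ctaacctccggtTAACGGtagctgcatctg
Mi-2 and Su(Tpl) intron, CHR word, chr3L:19903270-19903299, plus strand: attgaatacctaTTTGAAgaagcactaggt
Sh intron, Myb core, chrX:18018601-18018630, minus strand: taaccatgtgtgTAACGGtcattatacccg
CG34417 intron, Myb core, chrX:6549864-6549893, minus strand: gcgttctaatgaTAACGGataaaaagaata
simj intron, CHR word, chr3L:10678763-10678792, plus strand: aattgataatacTTTGAAaaatccaaattt
zfh1 intron, CHR word, chr3R:30781727-30781756, plus strand: gatctatatgtgTTTGAAttgttaatttct
pico intron, CHR word, chrX:19847130-19847159, plus strand: aaagtttagttgTTTGAAaccagaagggag

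These 8 peaks ranged in signal from 421.4 at pico, whose 2 replicates read 184.5 and 235.9, to 1779 at CG11050, whose replicates read 810.9 and 978.2. Signal is the value that the submitters' peak caller gave each peak, on a scale that is not stated, and it is used only to describe and rank peaks. The 3 Myb core peaks read 693.1 at CG1632, 539.3 at Sh, which encodes the Shaker potassium channel, and 503.2 at CG34417. At CG1632 a CHR word also lay within 50 bp of the summit, and at Sh there were 2. The CHR word lay 20 bp from the summit at Mi-2, which encodes a nucleosome-remodelling ATPase, and 24 bp from it at zfh1, which encodes a zinc-finger homeodomain repressor.

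Most distal gene-body summits lay in introns. Introns held 844 of 916 (92.1%, 95% Wilson interval 90.2 to 93.7), 3' UTRs held 44 (4.80%, 3.60 to 6.39), coding exons held 15 (1.64%, 0.995 to 2.68) and 5' UTRs held 13 (1.42%, 0.831 to 2.41). The intervals here and throughout cover sampling of peaks or genes only. For comparison, introns made up 70.7% of the gene-body bases that lie more than 1000 bp from every TSS, 3' UTRs 7.40%, coding exons 21.0% and 5' UTRs 0.891%. The intron share of summits was above the intron share of bases, and the coding-exon and 3' UTR shares were below theirs, in each case with the interval clear of the base share. The 5' UTR interval included the base share only at its lower end, 0.831 against 0.891%.

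Expressed as density, coding exons held 1.07 summits per Mb, 3' UTRs 8.87, introns 17.8 and 5' UTRs 21.8, the 5' UTR value from 13 summits in 0.598 Mb. An exon summit was counted as exonic even where another transcript or gene has an intron there, which was the case for 19 of them. With introns counted first, 863 (94.2%) were intronic and 3 were left in 5' UTRs. No distal gene-body summit lay in an annotated transposable element, and 0 of 916 allows a share of up to 0.328%. Such elements made up 5.25% of distal gene-body bases. How reads from repeated sequence were treated is not stated, and whether binding is absent from these elements was not tested. Of all 6100 called summits, 17 (0.279%) lay in them, a share that the 0 of 916 allows.

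**Figure D1:**
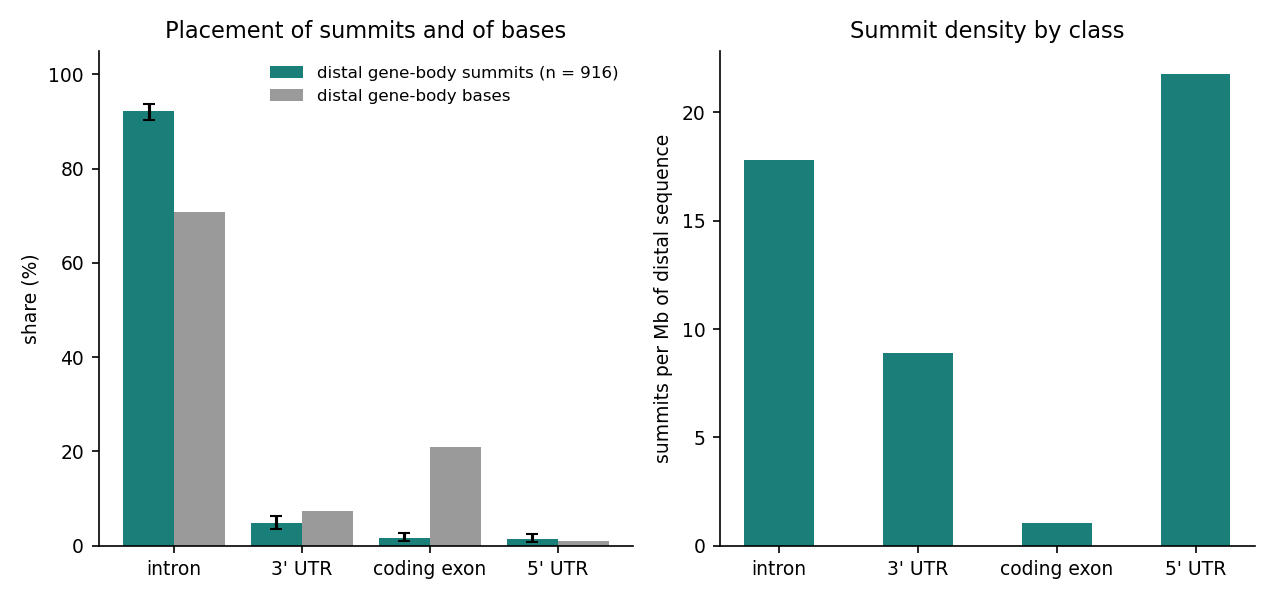
Left, share of the 916 distal gene-body summits (green, bars show 95% Wilson intervals) and share of distal gene-body bases (grey) in each class, in percent. Right, summits per Mb of distal sequence of each class; introns take 92.1% of summits and 70.7% of bases, coding exons 1.64% and 21.0%.

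The few summits in exons included some of the strongest peaks. The strongest distal gene-body peak lay at chr2L:540688 in the 3' UTR of lwr, which encodes the SUMO-conjugating enzyme Ubc9, with a signal of 3539 and replicate values of 1724 and 1746. A second summit of the same interval, at chr2L:540891, also lay in this 3' UTR and read 1402, with 591.2 and 784.2 in the replicates. The next strongest lay at chr3R:6908261 in a 3' UTR of Antp, the homeotic gene Antennapedia, and of the overlapping gene CG46458, with 3235 pooled and 1852 and 1393 in the replicates. That position is an intron in other transcripts. At CG5151 the 3' UTR summit at chr3L:16139324 read 1856, and at Tmhs the summit at chr3L:1891105 read 744 (replicates 405.2 and 344.7).

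In coding exons the strongest summit lay in otp, which encodes the homeodomain factor Orthopedia, at chr2R:20884502 with 1658 pooled and 756.3 and 903.3 in the replicates. The next were CG2121 at 324.0 and klar, which encodes a KASH-domain protein that positions nuclei, at 312.7. In 5' UTRs they were numb at 419.8 (190.7 and 234.8), which encodes an inhibitor of Notch signalling, bves at 297.2, and Mef2 at 250.5 (137.9 and 117.9), which encodes a MADS-box factor of muscle. At numb and Mef2 the same position is an intron of another transcript. Despite these peaks, the medians of the 4 classes had overlapping intervals. The median was 140.3 in introns (137.1 to 146.6), 155.9 in 3' UTRs (120.1 to 174.9), 162.5 in coding exons (100.2 to 277.6) and 125.2 in 5' UTRs (102.7 to 250.5).

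The strongest intronic summit lay in the first intron of ush, at chr2L:481085, with 2981 pooled and 1244 and 1731 in the replicates. ush encodes the zinc-finger protein U-shaped, a cofactor of GATA factors. The nearest TSS, 1397 bp away, belongs to cbt and not to ush. After CG11050 came SNF4Agamma at 1687 (984.0 and 709.3), which encodes the gamma subunit of AMP-activated kinase, and CG32772 at 1369 (646.4 and 717.3). The introns of wb, a laminin alpha chain gene, and of Svil followed at 1361 (730.7 and 627.1) and 993.3 (538.6 and 451.4).

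The remaining 9 of the 20 strongest summits were all intronic apart from Tmhs, described above, and read between 719.5 and 970.1. They included genes of 3 protein kinases. Tlk, the Tousled-like kinase, read 970.1 (437.7 and 539.6), Raf, the kinase between Ras and the MAP kinase cascade, read 921.9 (427.1 and 495.2), and for, the cGMP-dependent kinase Foraging, read 719.5 (347.6 and 369.6). Trl, which encodes the GAGA factor, read 879.1 (455.6 and 431.6), and norpA, the phospholipase C of phototransduction, read 768.7 (381.3 and 398.2). CG3726, CG9837 and CG32486 read 939.3, 867.8 and 852.5. In all 20 the summit was found in each replicate's list with a rank of 596 or better in replicate 1 and 551 or better in replicate 2.

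Distal gene-body peaks were weak as a class. Their median signal was 140.4 (order-statistic 95% interval 137.1 to 147.2), with 50% of them between 110.4 and 202.5 and a full range of 93.9 to 3539. Distal peaks outside protein-coding genes had a median of 152.5 (143.5 to 161.4) and peaks within 500 bp of a TSS a median of 202.7 (197.6 to 208.9). The interval of the distal gene-body median overlapped that of the former and lay below that of the latter. Among the strongest 610 of all called peaks, 23 were distal gene-body peaks, which is 2.51% of them against 12.2% of promoter peaks. Below the median rank of the called set lay 640 (69.9%), against 44.3% of promoter peaks and 60.4% of distal peaks outside genes.

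**Figure D2:**
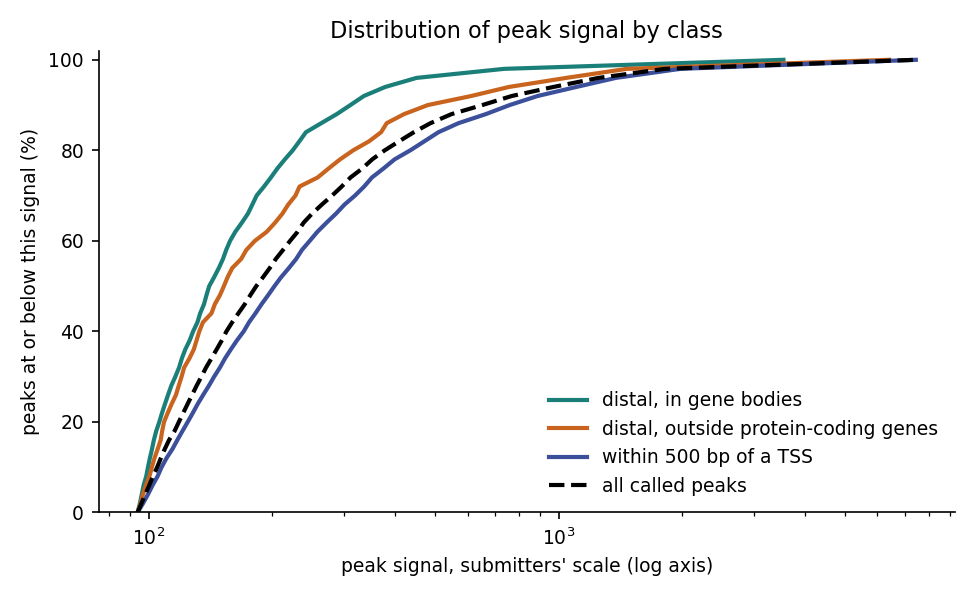
Percentage of peaks at or below each signal (log axis, submitters' scale), for distal gene-body peaks, distal peaks outside protein-coding genes, peaks within 500 bp of a TSS and all called peaks. The distal gene-body curve reaches 50% at a signal of 140.4, before the promoter curve at 202.7.

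The relaxed list that was made from the pooled replicates, before the IDR filter, holds 30000 peaks, of which 20.3% are in the called set. It held 11423 distal gene-body summits, and the 916 called ones are 8.02% of these (7.53 to 8.53). The corresponding share was 10.6% for distal summits outside protein-coding genes and 39.4% within 500 bp of a TSS. By class, 9.44% of relaxed distal intron summits were called, 6.40% in 3' UTRs, 9.09% in 5' UTRs and 0.909% (15 of 1650) in coding exons. Distal coding-exon summits were therefore present in the relaxed list and seldom among its strongest peaks. The called set holds the highest signals of that list, so these shares and the signal medians describe the same property.

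The replicates were compared through their own relaxed lists, with a summit counted as found when it lay within 100 bp. Of the 916, 644 (70.3%, 67.3 to 73.2) lay among the strongest 6100 peaks of both replicates, against 78.3% of all called peaks, 80.7% of promoter peaks and 72.9% of distal peaks outside genes. In the complete relaxed lists, 873 (95.3%) were found in both replicates, against 95.1% of all called peaks. Their median rank was 4270 in replicate 1 and 3838 in replicate 2, whereas promoter peaks had median ranks of 2572 and 2734. The called set passed the IDR filter over both replicates and holds the highest pooled signals, so these shares describe it and do not test it.

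Distal gene-body peaks read lower in replicate 1 than in replicate 2. The median log2 ratio of replicate 1 to replicate 2 was -0.20 (SD 0.48, n = 873 peaks), while that of promoter peaks was 0.07. The ratio was also below 0 for peaks 500 to 1000 bp from a TSS, at -0.11, and for distal peaks outside genes, at -0.05. Replicate 1 was the higher in 283 of the 873 distal gene-body peaks. The cause was not tested. Across the 873 peaks the 2 signals had a Spearman correlation of 0.704, against 0.843 over all called peaks, given as a description of peaks that share 2 libraries. The 10 peaks farthest apart, 5 in each direction, had pooled signals of 97.2 to 230.2. A summit in comm3 read 85.2 in replicate 1 and 16.5 in replicate 2, and a summit in fru read 87.4 and 29.1. The reverse held for Lrch, at 15.5 and 67.7, and for mbc, at 21.1 and 77.7.

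**Figure D3:**
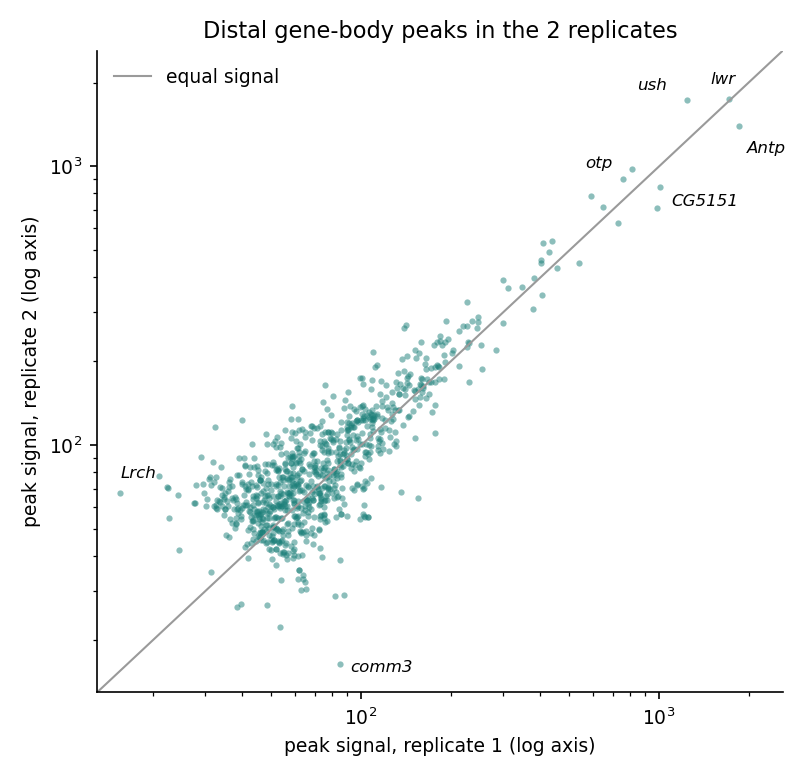
Peak signal in replicate 1 (horizontal, log axis) and replicate 2 (vertical, log axis) for the 873 distal gene-body peaks found in both complete relaxed lists; the line marks equal signal. The strongest peaks lie near the line, most others lie above it, and comm3 (85.2 and 16.5) and Lrch (15.5 and 67.7) lie farthest from it.

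Distal gene-body sequence held 13.7 summits per Mb over 67.1 Mb, distal sequence outside protein-coding genes 11.6 per Mb, and sequence within 1000 bp of a TSS 151.2 per Mb. Density fell with distance from the nearest TSS. It was 22.2 per Mb between 1000 and 2000 bp (311 summits), 15.7 between 2000 and 5000 bp (323), 12.9 between 5000 and 10000 bp (181), 7.31 between 10000 and 20000 bp (70) and 3.49 beyond 20000 bp (31). Median signal moved less than density, from 143.1 in the nearest bin (133.9 to 152.8) to 131.3 in the farthest (115.3 to 149.5). The median distance to a TSS was 3020 bp and the largest 49860 bp. Just inside the limit of 1000 bp lay summits of CG34435 at 1002 bp with a signal of 277.6, of Svil at 1003 bp with 132.2 and of Tob at 1003 bp with 267.0. Just outside it lay Acsl at 997 bp with 176.3, fwe at 994 bp with 99.96 and Bsg at 989 bp with 94.3.

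Within their genes, summits lay toward the 5' end. Introns were numbered on the longest transcript of each gene, and intronic summits outside that transcript's introns were left out of the numbering. Of 881 pairs of an intronic summit and a host gene, 407 (46.2%, 42.9 to 49.5) fell in the first intron, which made up 26.7% of distal intron bases, and 302 (34.3%, 31.2 to 37.5) in the second, which made up 26.9%. The third intron held 76 (8.63%, against 13.2% of bases), and later introns held 96 (10.9%, against 33.2%). As density this was 29.5, 21.7, 11.1 and 5.60 summits per Mb in turn. Cutting each gene into 4 equal lengths gave the same order, with 26.7, 15.4, 10.5 and 6.12 summits per Mb of distal sequence from the 5' to the 3' end. The median intron around a summit was 12.8 kb long, and the median distal intronic base lay in an intron of 16.0 kb.

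The X chromosome held 226 of the 916 (24.7%, 22.0 to 27.6), against 19.0% of distal gene-body bases and 17.4% of promoter peaks. Its density was 17.8 per Mb, and on 2L, 2R, 3L and 3R the density ran from 12.05 to 14.2 per Mb. Distal peaks outside protein-coding genes had 12.4 per Mb on the X and 8.94 to 13.9 on those 4 arms. The embryos were of mixed sex. The 4th chromosome held 1 distal gene-body summit, in a 3' UTR shared by sv and Cals, at 332.5 and 1.18 per Mb. It held 10 distal peaks outside protein-coding genes, at 40.2 per Mb.

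The 916 summits lay in 585 protein-coding genes, which is 4.2% of the 13945 such genes and 5.92% of the 9887 that have any sequence more than 1000 bp from every TSS. A single summit was found in 373 of these hosts, 2 in 130, and 3 or more in 82. The hosts were long genes, with a median length of 22.3 kb against 3.04 kb for genes that have distal sequence and no such summit. The nearest TSS belonged to the host for 669 of the 916 (73.0%) and to another gene for 247, and 44 summits lay in more than 1 protein-coding gene. Another distal gene-body summit lay within 5000 bp of 322 of them (35.2%). A called summit at a promoter lay within 5000 bp of 314 (34.3%), and the median distance to such a summit was 8395 bp.

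The 13 genes with most summits included several of transcription and signalling regulators. Hr4, a nuclear receptor gene of the ecdysone response, held 9 with signals from 109.9 to 493.2, and no called peak lay at its promoters. Its strongest, at chrX:1951908, read 220.0 and 267.5 in the replicates. shn, which encodes the zinc-finger protein Schnurri of the Dpp pathway, held 9 from 94.9 to 247.5, and sbb, which encodes the co-repressor Scribbler, held 9 from 100.2 to 189.3. kirre, an immunoglobulin-family adhesion gene of myoblast fusion, held 8 from 113.1 to 310.4 across a gene of 394.1 kb.

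ush held 7 summits from 105.2 to 2981, Raf held 7 from 95.1 to 921.9, and tara, a gene of the trithorax group, held 7 from 117.9 to 242.1. Those with 6 were Tlk, CG32264, CHES-1-like, rdx, CG1677 and ftz-f1. CHES-1-like, a forkhead factor gene, had the highest count for its length among these 13 genes, with 3.22 summits per 10 kb of distal sequence. rdx encodes an adaptor that targets Ci for degradation, and ftz-f1 encodes a nuclear receptor; their strongest summits read 202.0 and 141.4. kirre had the lowest count for its length, 0.237 per 10 kb. In Hr4, 7 of the 9 summits lay within the first 22 kb of the gene, and the strongest of ush lay 4.87 kb from its 5' end.

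**Figure D4:**
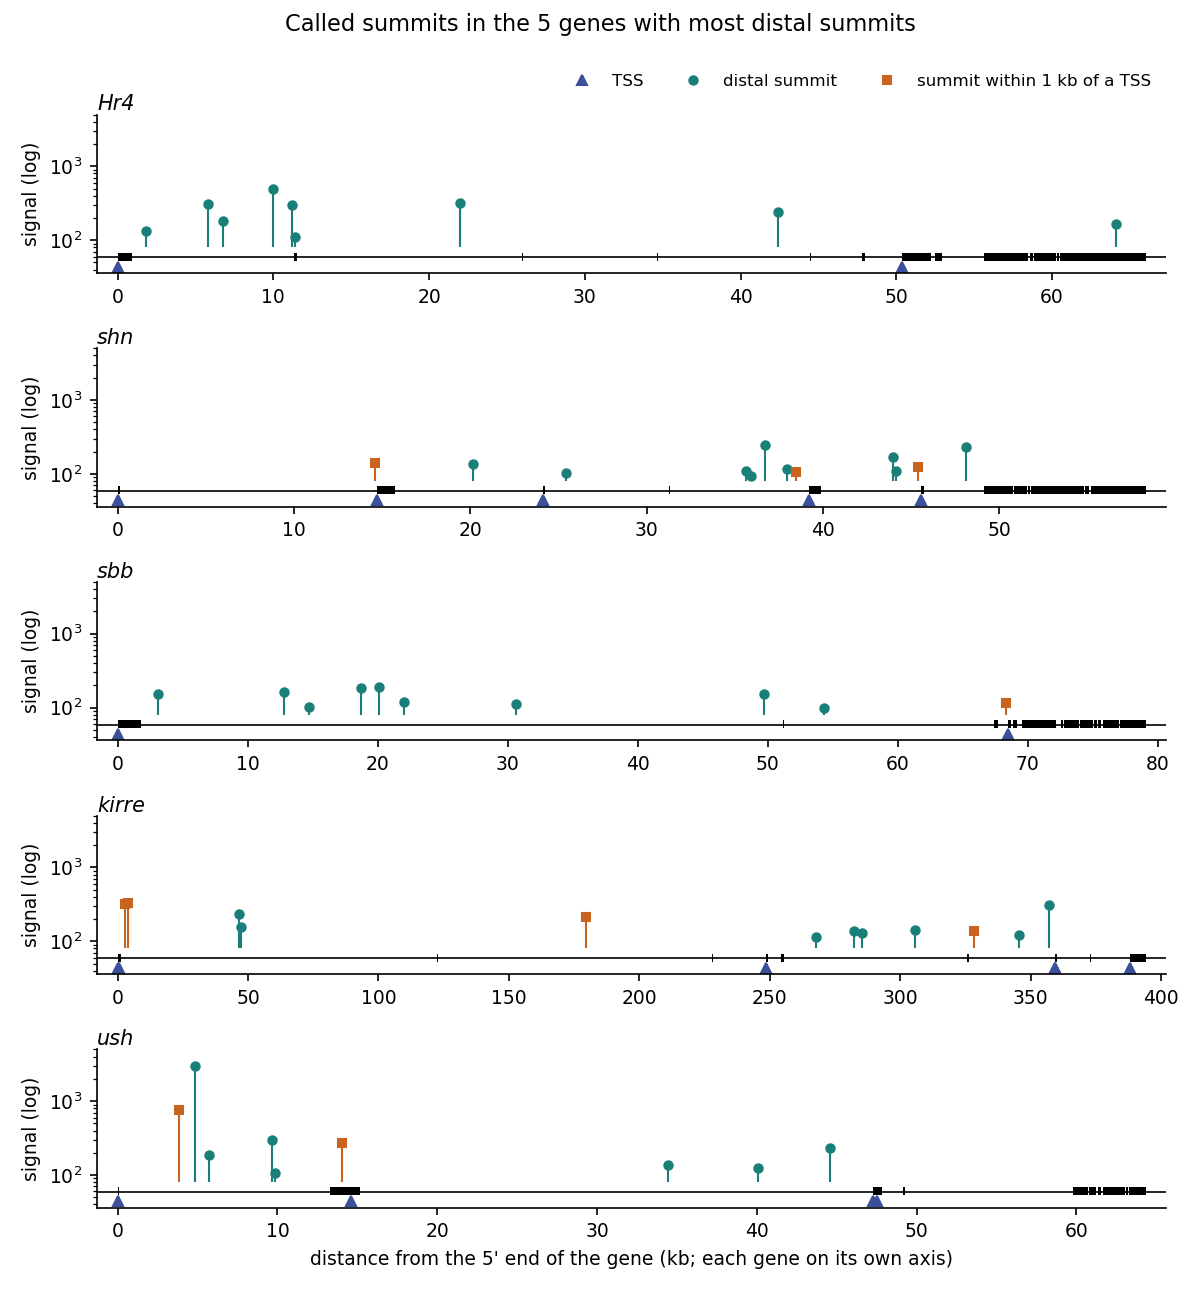
Called summits in the 5 genes with most distal summits, by distance in kb from the gene's 5' end (each gene on its own axis) and by signal (log axis). Black blocks are exons, triangles are the gene's own TSSs, green points are distal gene-body summits and orange squares are summits within 1 kb of a TSS of any gene; signals run from 94.9 in shn to 2981 in ush.

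Promoters of the host genes were often called as well. Of the 585 hosts, 354 (60.5%, 56.5 to 64.4) had a called summit within 500 bp of a TSS of their own, against 40.8% of all genes with distal sequence and 39.6% (38.6 to 40.6) of those without a distal gene-body summit. Hosts are longer and have a median of 2 TSS positions against 1. To allow for length, the shares were also set side by side within ranges of distal sequence length. In genes with 20 to 50 kb of distal sequence they were 68.7% of 163 hosts (61.2 to 75.3) and 26.6% of 406 other genes (22.5 to 31.1). They were 65.9 and 33.9% for 10 to 20 kb, 57.8 and 44.9% for 5 to 10 kb, 60.0 and 47.1% for 2 to 5 kb, and 45.1 and 23.5% above 50 kb. The intervals were clear of each other in the 3 ranges above 10 kb and overlapped in the 3 below. The ranges did not match TSS number. Its median was 2 for hosts and 1 for others in each range from 2 to 20 kb. Above 50 kb the medians were 3 and 2, while they were equal at 20 to 50 kb (2) and under 2 kb (1). Whether TSS number accounts for the differences was not tested. Under 2 kb, 11 of 21 hosts (52.4%, 32.4 to 71.7) and 37.98% of others had a called promoter. The share of genes with a distal gene-body summit itself rose with the distal length, from 0.391% below 2 kb to 40.0% above 50 kb.

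The host genes were read against 15 gene lists, described by their counts only and beside the 4.2% of all protein-coding genes that hold a distal gene-body summit. Lists differ in the length of distal sequence, so density is given as well, beside 13.7 per Mb overall. Of all genes with 5 to 10 kb of distal sequence, 10.1% held a distal gene-body summit. This share was 19.1% for 10 to 20 kb, 28.6% for 20 to 50 kb and 40.0% above 50 kb. Genes of the cell cycle, for which Myb is best known, were in 3 of the lists. Of 61 genes of mitosis and cytokinesis, 50 had a called promoter and 1 (1.64%, 4.33 per Mb) a distal gene-body summit, in Rho1, a GTPase of the contractile ring, at 102.1 (59.6 and 40.6). This count was 0 without replicate 1. None of the 11 genes of Myb-MuvB and dREAM had one, and all 11 had a called promoter. A count of 0 of 11 allows a share of up to 27.3%, and without replicate 2 the count was 1. These genes hold little distal sequence, 231.2 kb for mitosis and 54.3 kb for Myb-MuvB.

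Of 29 DNA replication genes, 2 (6.90%) had a distal gene-body summit, at 39.2 per Mb over 51.001 kb of distal sequence, and these encode the subunits of a single kinase that fires replication origins. Cdc7, its catalytic subunit, held a summit of 220.5 (110.0 and 113.0), and chif, its Dbf4-like activator, held a summit of 230.2 (154.9 and 64.8). The chif summit also lies in Hyls1, and its replicates differ by 1.26 on the log2 scale. Of 67 cytosolic ribosomal protein genes, 54 had a called promoter and 1, RpS26, a distal gene-body summit, at 96.9 in its 3' UTR (1.49%, 103.8 per Mb over 9.64 kb). This count was 0 without replicate 1.

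Larger shares were counted in several developmental and signalling lists, and whether they differ from other genes of the same length was not tested. The median distal sequence per gene was 9.79 kb in the signalling list, 20.3 kb for nuclear receptors and 5.58 kb for chromatin genes. It was 5.30 to 7.76 kb in the homeotic, neural fate, muscle and Hippo lists. Of 57 signalling genes, 19 (33.3%) had a distal gene-body summit, at 42.6 per Mb, led by numb at 419.8, aos at 370.9 (156.7 and 213.6) and aop at 366.6 (189.9 and 172.9), of which the latter pair encode an inhibitor of the EGF receptor and the ETS repressor Yan. Of 27 nuclear receptor and ecdysone response genes, 9 (33.3%) had one, at 38.5 per Mb. They were led by Hr4 at 493.2, EcR, the ecdysone receptor, at 472.9 (252.5 and 228.2), and Hr3 at 411.7 (179.7 and 234.5). Of 40 Polycomb, trithorax and chromatin genes, 9 (22.5%) had one, at 44.9 per Mb, the highest density of any list with more than 2 summits. They were led by Trl at 879.1, Mi-2 at 562.7 (226.4 and 325.7) and trx, the histone methyltransferase gene trithorax, at 257.5 (120.9 and 148.6).

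Of 44 homeotic, gap and segmentation genes, 8 (18.2%) had a distal gene-body summit at 24.2 per Mb, whereas 5 had a called promoter. Antp led them at 3235, followed by zfh1 at 440.0 (184.0 and 246.0) and the Hox gene pb at 154.8 (105.3 and 55.3). Of 36 neural fate factors, 8 (22.2%) had one at 20.9 per Mb, led by the ETS factor gene pnt at 289.3 (117.0 and 170.1), grh at 242.2 (117.9 and 125.0) and fru at 236.7 (91.6 and 138.3). Of 29 muscle genes, 5 (17.2%) had one at 16.1 per Mb, led by Mef2, by how, which encodes an RNA-binding protein, at 230.0 (108.9 and 119.8), and by Zasp66 at 172.4. In the Hippo and growth list it was 4 of 21 genes at 21.6 per Mb, led by the upstream regulators ex at 213.2 (79.6 and 128.8) and kibra at 209.6 (92.8 and 116.5), and by Myc at 205.0 (103.8 and 100.8).

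The lists of long neuronal, adhesion and RNA-binding genes had densities below the 13.7 per Mb overall. Their median distal sequence per gene was 42.8 kb for axon guidance, 31.7 kb for ion channels and 26.9 kb for RNA-binding genes. Of 40 axon guidance and adhesion genes, 11 (27.5%) had a distal gene-body summit, at 9.82 per Mb. They were led by kirre at 310.4 (152.2 and 156.6), Fas3 at 208.1 and the netrin receptor gene fra at 200.4. Of 32 ion channel and synapse genes, 6 (18.8%) had one, at 8.79 per Mb, led by Sh at 539.3 (247.8 and 288.2), the cAMP phosphodiesterase gene dnc at 255.8 (112.6 and 138.0) and pum, a translational repressor gene, at 190.6 (87.8 and 93.6). Of 29 RNA-binding genes, 10 (34.5%) had one, at 11.6 per Mb, led by how, pum and the sex-determination gene Sxl at 189.0. Apart from these, of 31 cytoskeleton genes, 6 (19.4%) had one, at 17.9 per Mb, led by the actin nucleator gene spir at 167.3, mbc at 161.0 and shot at 150.7. A gene counts in every list that names it, as how and pum do in 2.

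The sequence at the summits was read over 101 bases and set beside windows centred 300 bp away on either side. The Myb core was in 43 of 916 windows (4.69%, 3.50 to 6.26), against 5.84% of flanks. At promoter peaks it was in 10.9% against 5.98% of their flanks, and over all called peaks in 9.59%. The CHR word was in 200 (21.8%, 19.3 to 24.6), against 13.9% of flanks, and at promoter peaks in 23.1% against 15.0%. Distal gene-body summits thus held the CHR word above their flanks, and the Myb core not above them. In the stronger 458 of the 916 the shares were 4.80% for the Myb core and 24.9% for the CHR.

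Words of fly housekeeping promoters were scarcer at the distal gene-body summits than at promoter peaks. The DRE, TATCGATA, was in 1 of 916 (0.109%, 0.0193 to 0.616) against 8.21% of promoter peaks, and the core of Motif 1, GGTCACAC, was in 3 (0.328%) against 7.16%. In the flanks of distal gene-body summits each of these words was in 0.164%. At distal peaks outside protein-coding genes the DRE was in 2.20% and the Motif 1 core in 0.733%. CGATA, the core bound by BEAF-32 and contained in the DRE, was in 13.5% (11.5 to 15.9), against 11.1% of flanks and 34.6% of promoter peaks. Several other words were less frequent at summits than in flanks. Summits also held less G and C than flanks, as given below, and whether composition accounts for these differences was not tested. GAGAG, the word of the GAGA factor, was in 11.2% against 16.9%, the CA repeat CACACACA in 1.86% against 5.24%, and the E-boxes CAGCTG and CACGTG in 2.95% against 5.02% and 0.655% against 1.80%. The AP-1 words TGAGTCA and TGACTCA were in 1.09% against 1.42%, the Zelda word CAGGTAG in 0.437% against 0.546%, and the run AAAAAAAA in 7.31% against 7.64%. The E2F words TTTGGCGC and TTTCGCGC were in 1.20% of summits against 0.600% of flanks, but in 1.19% of both without replicate 2.

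Base composition moved with the summits. The GC content of the 101 bases was 36.1% (SD 8.38, n = 916) and that of the flanks 43.3%, a mean difference of -7.19 percentage points (SE 0.383), and it was lower at the summit in 683 of the 916 (74.6%). For the 780 intronic summits whose flanks were also intronic the difference was -8.19. Promoter peaks had 40.8% at the summit and 42.9% in the flanks, and distal peaks outside genes had 36.7 and 41.7%. In 51-base windows the mean at distal gene-body summits was 35.6%, and 100 bp to either side it was 40.3 and 41.0%. At promoter peaks the centre was 41.5% and the same distances were at 36.7 and 37.7%.

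**Figure D5:**
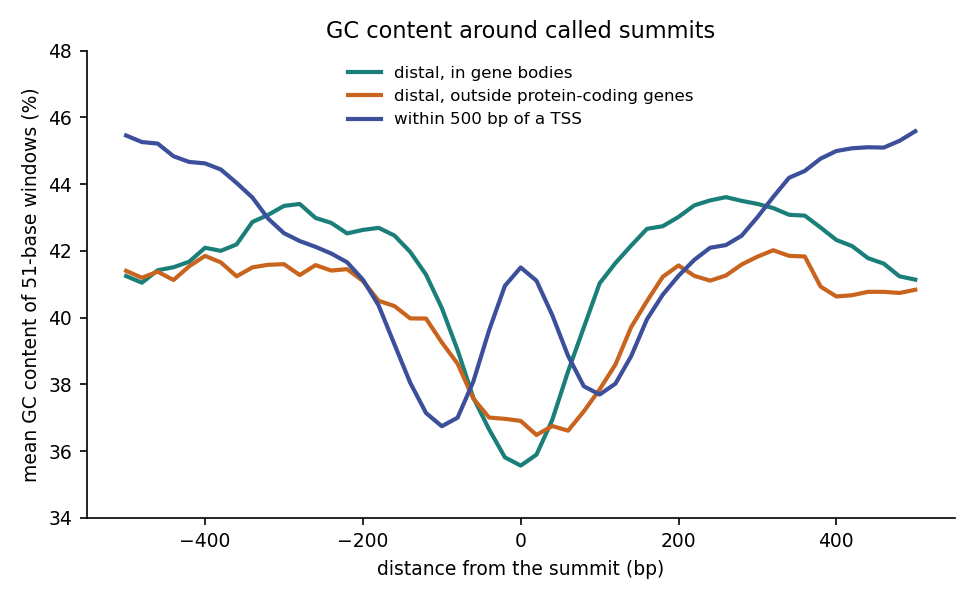
Mean GC content in percent of 51-base windows (vertical) by distance in bp from the summit (horizontal), for distal gene-body peaks, distal peaks outside protein-coding genes and peaks within 500 bp of a TSS; the vertical axis starts at 34%. Distal gene-body peaks have their minimum, 35.6%, at the summit, where promoter peaks have a local maximum of 41.5%.

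Because TTTGAA is rich in A and T, its share was set beside those of all 2080 words of 6 bases, with both strands merged. TTTGAA was in 175 of the 916 windows (19.1%) against 9.83% of flanks. By the difference between summit and flank it ranked 8th, behind 7 words made of A and T alone, and it ranked 1st among the 192 words with a single G or C. Its rank among all words moved between 2 and 12 over the 4 other settings tried. AAACTT, the base-by-base complement of TTTGAA (on the other strand, TTTGAA read backwards), was in 14.5% against 9.28%. The other CHR word, TTCGAA, was in 4.04% against 4.37%. Of the Myb core words, TAACGG was in 3.06% against 1.97% of flanks and CAACGG in 1.86% against 3.88%. By the same difference, TAACGG ranked 57th of the 640 words with 3 G or C, and CAACGG 385th of the 492 with 4. TTTGAA was also 1st among its 192 words at promoter peaks, at 19.2% against 11.4%. At distal peaks outside protein-coding genes it was 2nd among them, at 20.3% against 10.9%.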

How the data were processed

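Per the labels, 2 biological replicates of embryos 0 to 24 h old were processed. The authors deposited peak lists on dm6 (4 used here: each replicate, pooled, and the IDR set) and on dm3 (not used). Each peak's signal, as deposited, came from the authors' peak caller on an unstated scale. The deposited −log10 q was not used to rank peaks. Aligner, peak caller, versions and IDR cutoff were not given in the sources used here, and depth is unknown. The 6100 called peaks were placed on the Ensembl annotation of the same assembly (23581 TSS positions, transposable elements left out) over 6 arms, 1-based, with overlapping classes taken in the order 5' UTR, coding exon, 3' UTR, intron. Shares have 95% Wilson intervals and medians order-statistic intervals. For a count of 0, the upper limit given is 3 divided by the number of peaks or genes, an approximation that is rough for 11 genes. No p-value was computed, since there is 1 group.

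The 15 gene lists and 13 words, like the peaks themselves, were chosen with earlier results of these data known; base composition and the ranking of 6-base words were added after seeing the data. Of 575 list entries, 554 matched a protein-coding gene and 21 were not analysed here. Genes were named by rule: hosts of the 20 strongest summits, the 10 genes with most summits (ties included), the 3 strongest summits of each exon class and of each list, and the 3 summits on each side of the 1000 bp limit. The peaks farthest apart between replicates and the genes on the 4th chromosome were named after their values were seen. Sequences were printed for the strongest summits with a word, 30 bases each. The placement of summits was checked on simulated positions. Python 3.11.15, numpy 2.4.6, pandas 2.3.3 and scipy 1.17.1 were used.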

Additional observations from a re-analysis of the deposited data

How the results depend on the processing

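With a TSS limit of 2000 bp, 605 peaks and 11.4 per Mb remained in the class, and with 500 bp the density was 15.4. The stronger 3050 called peaks gave 276 distal gene-body peaks in 241 genes, with a median signal of 250.1 and 98.9% in both replicates. That last share was 59.2% with summits matched within 50 bp, 74.2% within 200 bp and 95.3% in the complete relaxed lists. The intron share was 94.2% with introns counted before exons. Hosts with a called promoter were 52.1% with a window of 250 bp and 66.7% with 1000 bp. Using a single replicate's strongest 6100 peaks, the class held 841 to 964 peaks in 554 to 601 genes, 91.9 to 92.4% of them in introns. The Myb core was then at 5.08% of summits and 5.03% of flanks without replicate 1, and at 4.64% and 5.53% without replicate 2, so which of the 2 is higher depended on replicate 1. The CHR word was above its flanks in each setting tried. TTTGAA was 1st among its 192 words with intronic flanks, in the stronger 458 peaks and without either replicate. Its rank among all words was 12 with intronic flanks, 3 in the stronger 458 peaks, 2 without replicate 1 and 5 without replicate 2. For the DRE, Zelda, Motif 1, E2F and A-run words, the difference between summits and flanks vanished or turned in at least 1 setting. For E2F it was 2.18 against 2.07% within 100 bp. The count of genes with a summit moved by over 1.5 times in 11 of 15 lists with the stronger called peaks, from 6 to 0 for the cytoskeleton and from 8 to 2 for the homeotic list, in 2 without replicate 1 and in 1 without replicate 2. With neither depth nor a control library, weak peaks could not be set against background. No paired analysis was possible because there was 1 group.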
